A study of Mus musculus with 192 samples.

Results

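Ramp1, Ramp2 and Ramp3 encode the receptor activity modifying proteins, and they were 3 of the 43 target genes counted in the brains of L44 mice. They were chosen by name as the complete family on the panel, and they were followed in all 192 pools. A receptor activity modifying protein is a small membrane protein with a single transmembrane span that works only beside a partner receptor. Paired with the calcitonin receptor (Calcr) each of the family members forms an amylin receptor, and paired with the calcitonin receptor-like receptor they form receptors for calcitonin gene-related peptide (with Ramp1) or for adrenomedullin (with Ramp2 or Ramp3). In the brain, amylin acting on such receptors in the area postrema of the hindbrain and in the hypothalamus is known to limit meal size.

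L44 mice are FVB/n animals that carry a human amylin transgene with 3 proline substitutions (tripro-hA), expressed from the rat insulin 2 promoter and therefore made mainly in pancreatic beta cells. Nontransgenic (NON), hemizygous (HEM) and homozygous (HOM) males were compared, and the NON mice came from HEM parents. Tissue was taken at T1 (100 days of age), at T2 (the onset of diabetes, at labelled ages from 90 to 286 days, with NON mice of similar ages) and at T3 (400 days), in the morning (AM) or the afternoon (PM). RNA of 1 or 2 mice was pooled, and each brain was divided into both cortices, a hindbrain piece that kept the cerebellum and a midbrain piece that kept forebrain and hypothalamus, and 35 of the 61 pool labels were counted in all 4 regions (11 in 3, 4 in 2 and 11 in 1). At T3 the labels marked 13 of 23 HEM, 18 of 22 HOM and 12 of 24 NON pools as previously diabetic. The NON label there thus does not stand for animals that were never diabetic. These are counts of pools, and pools of different regions can hold the same mice. The study reported that diabetic mice had returned to normal blood glucose by T3. The 72 NON and 58 HOM pools all had a collection time, and 12 of the 62 HEM pools, all from T1, had none and entered no test.

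A level below is the count of a gene divided by the geometric mean of the 3 reference genes of the same pool. The median total count was 151091 for hindbrain pools, 245328 for midbrain, 278654 for left and 414121 for right cortex pools. It was lower at T3 than at T1 in the hindbrain (89256 against 153238), the left cortex (151641 against 393475) and the right cortex (144686 against 430110), but not in the midbrain (238912 against 223174). In 3 hindbrain pools of T3 (NON PM 5/6, NON AM 7 and HOM AM 9) the reference gene level was under 0.2 of the regional median. Ramp1 and Ramp2 were above the background of the negative probes in all 192 pools, and Ramp3 was above it in all but the hindbrain HOM AM 9 pool, in which its count was 3. The probes of different genes differ in efficiency, so the levels of the 3 genes were compared only across pools and not with each other.

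The region labels were checked on 7 hypothalamic genes. All 7 were higher in the midbrain than in the hindbrain of NON mice, led by Mch with a log2 difference of 7.30 and Hcrt with 4.55, the neuropeptides of lateral hypothalamic neurons. Of all 43 target genes 33 were higher there, so the count alone does not single out these 7. In the left cortex 6 of the 7 were lower than in the midbrain (Mch by -7.92 and Hcrt by -4.88), and Npy, which cortical interneurons also make, was higher by 1.45. Of all 43 target genes 17 were lower in that comparison. Iapp, the gene for amylin itself, was above background in only 1 of 18 left cortex and 2 of 18 right cortex NON pools.

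Ramp3 was the family member with the sharpest regional pattern. In NON mice its level in the midbrain was 0.423 at the lowest, 0.580 at the median and 0.650 at the highest of 18 pools. Every midbrain pool lay above every pool of the other regions. How many of the 43 target genes separate regions in this way was not counted. In the hindbrain the 18 pools ran from 0.0685 through a median of 0.122 to 0.172, in the left cortex from 0.120 through 0.180 to 0.229, and in the right cortex from 0.108 through 0.170 to 0.230. The midbrain exceeded the hindbrain by 2.19 on the log2 scale (SE 0.073, adjusted p = 3.42e-33 by the quasi-likelihood test of edgeR, Benjamini-Hochberg adjusted for 43 genes), where 90.7% of all target genes differed. The left cortex lay below the midbrain (-1.61, adjusted p = 1.09e-28 by the same edgeR test) and the right cortex likewise (-1.62, adjusted p = 8.66e-29), against 76.7% and 79.1% of the target genes. Both cortices were above the hindbrain, by 0.58 on the left and 0.57 on the right (83.7% and 81.4% of the genes differed there). The left and right cortex differed in Ramp3 by only -0.01 (95% interval -0.14 to 0.12). In dissected tissue of this kind, a difference in the number of cells that express a gene and a difference in RNA per cell cannot be told apart.

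**Figure D1:**
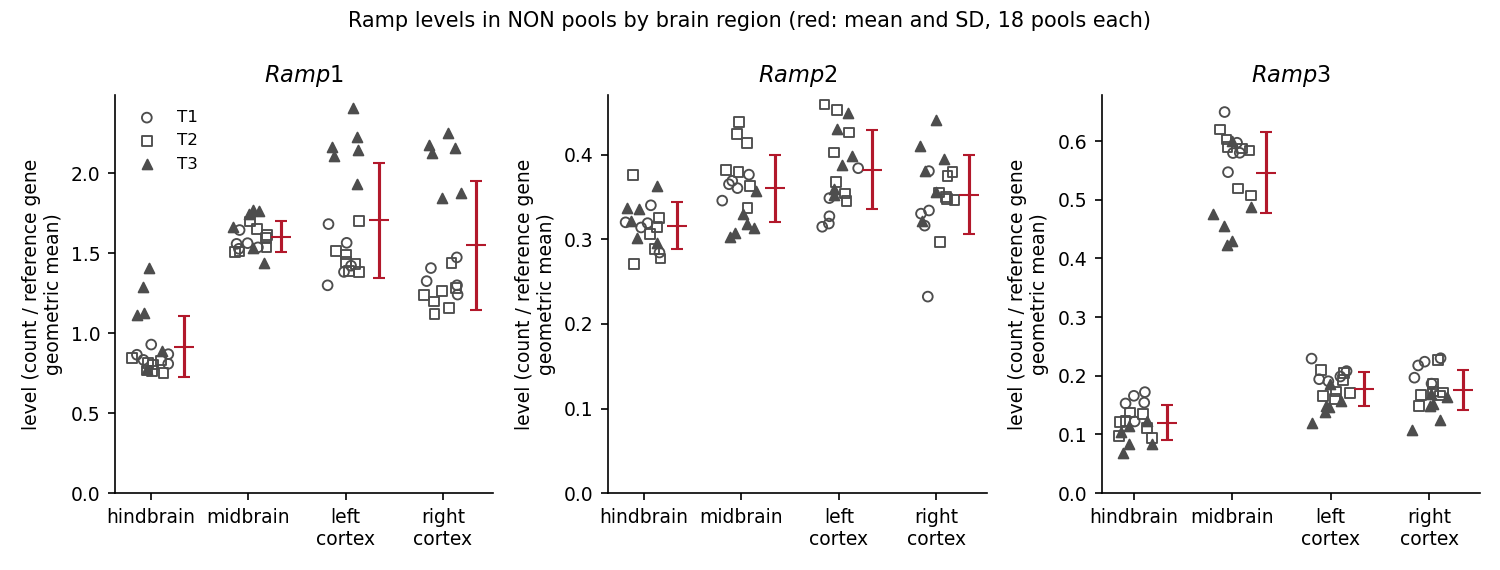
Level of each Ramp gene (count over the geometric mean of 3 reference genes, vertical axis) in the NON pools of the 4 regions, with a symbol for each time point and the mean and SD of 18 pools in red. The midbrain pools of Ramp3 (0.423 to 0.650) lie above all other pools, while Ramp1 is lowest in the hindbrain and Ramp2 differs little between regions. The share of target genes that separate regions in this way was not counted.

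Ramp1 was lowest in the hindbrain and similar in the other regions. Its level ran from 0.749 through a median of 0.839 to 1.41 in the hindbrain, from 1.44 through 1.58 to 1.77 in the midbrain, from 1.30 through 1.54 to 2.41 in left and from 1.12 through 1.37 to 2.25 in right cortex (18 NON pools each). The midbrain pools lay above all hindbrain pools, and the ranges of both cortices reached into that of the hindbrain. Again the share of target genes that separate regions in this way was not counted. Without the pools of low reference gene level the hindbrain reached 1.13 at the highest, below the left cortex but within the range of the right. Relative to the hindbrain Ramp1 was higher by 0.81 in the midbrain and by 0.89 and 0.73 in left and right cortex (SE 0.050 each), with adjusted p-values of 3.11e-21, 4.53e-23 and 1.63e-19 by edgeR. Between midbrain and cortex it did not pass the test (0.08 for the left cortex, 95% interval -0.02 to 0.18, and -0.08 for the right, -0.18 to 0.02), but with the mice as a block the right cortex was called (-0.08, adjusted p = 0.0377 by edgeR). The right cortex was below the left by -0.16 (adjusted p = 0.0302 by edgeR), where 6.98% of the genes (3 of 43) differed, and this call was lost with the pools of all genotypes (-0.08) and on leaving out any of 12 of the 72 pools, and turned to 0.15 under the positive control scaling.

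Ramp2 was the most even of the family. Its level ran from 0.271 through a median of 0.317 to 0.376 in the hindbrain, from 0.302 through 0.362 to 0.439 in the midbrain, from 0.315 through 0.376 to 0.459 in left and from 0.232 through 0.353 to 0.441 in right cortex, so that all 4 regions overlapped. Against the hindbrain it was higher by 0.17, 0.25 and 0.15 in the midbrain, left and right cortex (adjusted p = 0.00159, 8.98e-06 and 0.00627 by edgeR), but these directions did not hold under the TMM scaling, which gave -0.09, -0.03 and -0.12. Relative to the median of the 43 genes the same differences were -0.17, 0.08 and -0.01. No other pair of regions passed the test for Ramp2, although left cortex against midbrain did with the mice as a block (0.09, adjusted p = 0.0417 by edgeR). Over the 18 tests of the 3 genes between regions 12 passed, 9 of them upward and 3 downward, against 69.8% of such tests over all 43 genes.

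Ratios within a pool need no reference gene, and regions of the same mice could be set against each other. The ratio of the Ramp3 count to the Ramp1 count had a median of 0.348 in the midbrain of NON mice, against 0.139 in hindbrain, 0.121 in left and 0.131 in right cortex. It was higher in the midbrain than in the hindbrain in 15 of 15 pools, by 1.35 on the log2 scale (SD 0.410, exact sign-flip permutation test, adjusted p = 0.000157), and it was lower than in the midbrain in 16 of 16 left (-1.66) and 17 of 17 right cortex pools (-1.52, both adjusted p = 0.000137 by the exact test). The Ramp3 to Ramp2 ratio differed likewise by 1.97 between midbrain and hindbrain in 15 of 15 pools. Between cortex and hindbrain these ratios ran in opposite directions. On the left Ramp3 to Ramp1 was lower (-0.27, 12 of 14 pools, adjusted p = 0.00739 by exact sign flips) and Ramp3 to Ramp2 higher (0.27, 12 of 14 pools, adjusted p = 0.0097 by exact sign flips). On the right Ramp3 to Ramp1 did not pass (-0.07) and Ramp3 to Ramp2 was higher (0.42, 13 of 14 pools, adjusted p = 0.000879 by exact sign flips). The Ramp2 to Ramp1 ratio was lower outside the hindbrain, by -0.62 in midbrain (15 of 15 pools), -0.54 in left (14 of 14) and -0.50 in right cortex (14 of 14), and did not pass the test among the other regions. Of the 18 ratio tests between regions 12 passed, and the same 12 had an unadjusted permutation p under 0.05, a share near the 69.5% of tests over all pairs of the 43 genes.

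The other genes of amylin signalling on the panel were followed across the same regions. Calcr, the partner receptor, and its splice forms Calcr-1a and Calcr-1b were higher in the midbrain than in the hindbrain (1.41, 0.72 and 1.44, though either splice form was above background in only 14 of 18 hindbrain pools, so that its value is approximate), as were the arrestins Arrb1 (0.52) and Arrb2 (0.32), which uncouple activated receptors, whereas the receptor kinase gene Adrbk1 was lower (-0.24). In all, 5 of the 8 pathway genes were higher and 1 lower there, with a median of 0.42 against 0.34 for all 43 genes. Of all 43 genes 33 were higher and 6 lower. Calcr was above background in all 18 midbrain pools but in only 5 of 18 left and 9 of 18 right cortex NON pools, so no size is given for its difference between cortex and midbrain. Calcr-1a was above background in 0 of 18 pools of either cortex. Ramp1, Ramp2 and Ramp3 were above background in all 18 pools of each cortex. The calcitonin receptor-like receptor, their other partner, was not among the 43 target genes.

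Across the 36 means of region, time point and genotype, the genes most like Ramp3 in log2 level were Hcrt (Pearson r = 0.94), Mch (0.91) and Foxo1 (0.90). Those most like Ramp1 were Hrh1 (0.85), Hdac5 (0.66) and Npy (0.65), and those most like Ramp2 were Hdac5 (0.59), Hrh1 (0.56) and Ramp1 (0.53). These 36 means share the 4 dissections and the reference genes, and the values are a description. The means also include the 3 pools of low RNA and the 12 pools without a collection time. The group means were then removed in 177 pools, without the 3 pools of low RNA and the 12 without a collection time. The closest genes were then Akt1 for Ramp1 (r = 0.60), Adrbk1 for Ramp2 (0.58) and Hrh1 for Ramp3 (0.37). The family members had little in common with each other on this scale (r from 0.09 to 0.14), and the pools shared a reference gene level, which enters both sides of each r.

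Time point was taken up next, first between T1 and T3. Ramp1 and Ramp3 moved apart. In NON mice the Ramp1 level in the left cortex was 1.30, 1.38, 1.42, 1.57 and 1.68 in the 5 pools of T1 and 1.94, 2.11, 2.15, 2.17, 2.23 and 2.41 in the 6 pools of T3. In the right cortex it was 1.24, 1.30, 1.33, 1.41 and 1.47 at T1 and 1.85, 1.88, 2.13, 2.16, 2.18 and 2.25 at T3. The pools of the time points did not overlap in either cortex, as was so for 46.5% of the target genes on the left and 41.9% on the right. The log2 differences were 0.55 (SE 0.066, adjusted p = 1.14e-08 by edgeR) in the left cortex and 0.63 (SE 0.071, adjusted p = 1.98e-09) in the right, where 58.1% and 62.8% of the target genes differed, most of them downward (19 lower and 6 higher, and 22 lower and 5 higher). In the midbrain the difference was 0.08 (95% interval -0.04 to 0.20) and did not pass the test. In the hindbrain it was 0.36 (adjusted p = 0.0067 by edgeR, 62.8% of the genes called, with Ramp1 the only one called upward), but it was 0.14 without the 3 pools of low RNA and 0.19 without the NON AM 7 pool alone, and neither passed the test.

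Ramp3 was lower at T3 relative to the reference genes in the 4 regions of NON mice. In the left cortex its level was 0.191, 0.194, 0.199, 0.208 and 0.229 at T1 and 0.120, 0.139, 0.148, 0.149, 0.158 and 0.186 at T3, and in the right cortex it was 0.187, 0.197, 0.218, 0.224 and 0.230 at T1 and 0.108, 0.125, 0.148, 0.152, 0.164 and 0.169 at T3. The cortical time points did not overlap, which again was so for 46.5% (left) and 41.9% (right) of the target genes. In the midbrain the 5 pools of T1 lay between 0.547 and 0.650 and the 6 of T3 between 0.423 and 0.599, and in the hindbrain the pools lay between 0.122 and 0.172 at T1 and between 0.0685 and 0.124 at T3, with some overlap in both. The log2 differences for hindbrain, midbrain, left and right cortex were -0.66, -0.29, -0.46 and -0.56 (adjusted p = 0.00211, 0.00509, 0.00285 and 3.83e-05 by edgeR). In the hindbrain and midbrain 62.8% and 51.2% of the target genes differed. Without the 3 low pools the hindbrain value of Ramp3 was -0.73 (adjusted p = 0.000255 by edgeR).

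The whole panel shifted downward between these time points. For hindbrain, midbrain, left and right cortex the median log2 difference of the 43 genes was -0.54, -0.20, -0.22 and -0.33. Relative to these medians Ramp3 lay at -0.11, -0.09, -0.24 and -0.23, and under the TMM scaling its differences were -0.20, -0.10, -0.18 and -0.19, none of which passed the test. Ramp1 lay at 0.91, 0.28, 0.77 and 0.96 above the medians. The median itself moved with the scaling, from -2.13 to 0.06 over these regions and 7 scalings. Scaled to the positive control probes, which leave in the amount of RNA that was hybridised, Ramp1 itself turned downward at T3 in the hindbrain (-1.56) and both cortices (-1.04 left and -1.15 right) together with the rest of the panel. Total counts were lower at T3 in the same 3 regions, and the part of depth in these differences was not tested. The labels give no hybridisation run or cartridge, so the part of the run in the differences between time points was not tested.

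**Figure D2:**
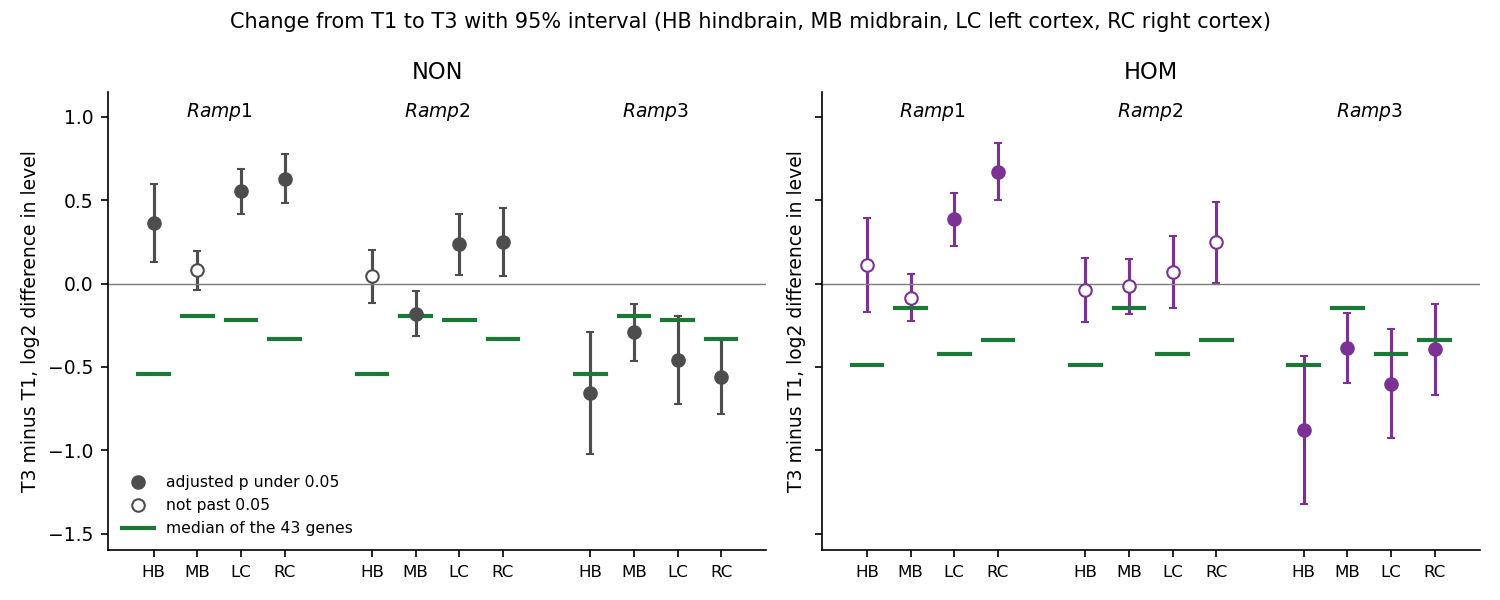
Log2 difference in level between T3 and T1 (vertical axis) for each Ramp gene and region in NON (left) and HOM (right) mice, with 95% intervals, filled symbols where the adjusted p was under 0.05, and the median of the 43 genes as a green bar. Ramp1 lies above the panel median in every region and Ramp3 at or below it. Scaled to positive control probes, the cortical rises of Ramp1 in NON mice became falls of -1.04 and -1.15.

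Ramp2 moved in different directions by region. At T3 it was lower in the midbrain of NON mice (-0.18, adjusted p = 0.0228 by edgeR) and higher in the left cortex (0.24, adjusted p = 0.0228) and right cortex (0.25, adjusted p = 0.0277). Leaving out 1 pool ended these calls for 5 of 46 midbrain, 4 of 45 left cortex and 4 of 46 right cortex pools. All 3 calls were also lost without reference gene 1 (-0.042, 0.14 and 0.19 in midbrain, left and right cortex). The midbrain value was 0.02 under TMM, and the cortical values were -1.35 and -1.51 when scaled to the positive control probes. The change in Ramp2 differed between regions when the difference itself was tested, by 0.42 between left cortex and midbrain (adjusted p = 0.0023 by edgeR) and by 0.43 between right cortex and midbrain (adjusted p = 0.00138). For Ramp1 the same contrasts were 0.47 (adjusted p = 0.000268) and 0.55 (adjusted p = 1.86e-05), and the midbrain change lay 0.28 below that of the hindbrain (-0.28, adjusted p = 0.0406, but -0.06 without the 3 low pools and -0.10 without NON AM 7). Between 34.9% and 37.2% of all target genes differed in these contrasts. Without reference gene 1, 4 of the 5 calls were lost (Ramp2 0.18 and 0.24, Ramp1 0.23 and, against the hindbrain, -0.16), and all 5 differences turned in sign under the positive control scaling. For Ramp3 none of the differences between regions passed the test.

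In HOM mice Ramp3 was again lower at T3 in all 4 regions, with differences of -0.88 (hindbrain), -0.39 (midbrain), -0.60 (left cortex) and -0.39 (right cortex) (adjusted p = 0.00162, 0.00629, 0.00176 and 0.013 by edgeR, with 53.5%, 20.9%, 48.8% and 58.1% of the genes called), and the hindbrain value was -0.78 without the low pool. As in NON mice, none of these calls held under TMM (-0.47, -0.24, -0.27 and -0.041) or the median of ratios (-0.40, -0.26, -0.23 and -0.056). The midbrain and right cortex calls were also lost without reference gene 1 (-0.24 and -0.29), and under positive control scaling the hindbrain (-1.41) and midbrain (-0.039) values were not called. Only 1 HOM PM pool of T3 stood for each region. Ramp1 was higher in the left cortex (0.39) and right cortex (0.67), directions that turned under positive control scaling (-0.74 and -0.51), and the hindbrain (0.11) and midbrain (-0.08) did not pass the test. The left cortex pools ran from 1.21 to 1.43 at T1 and from 1.58 to 1.98 at T3, and the right cortex pools from 1.03 to 1.45 and from 1.68 to 2.55, without overlap (32.6% and 34.9% of the target genes did not overlap there). Ramp2 did not pass the test in HOM mice. In HEM mice the PM pools alone could be compared, with 1 or 2 pools at T1: Ramp3 was lower in the hindbrain (-0.96, adjusted p = 0.00712 by edgeR, -0.70 and not called without the T1 PM 8 pool, nor under TMM at -0.62, the median of ratios at -0.57 or positive control scaling at -0.077) and Ramp1 higher in the right cortex (0.62, but -1.34 under positive control scaling), where 30.2% and 46.5% of the genes were called. Ramp1 in the hindbrain of these mice was -0.34 and did not pass (adjusted p = 0.112 by edgeR), but it was called at the same value without the 3 low pools, which are of other genotypes (adjusted p = 0.0422 by edgeR). The HOM and NON changes between T1 and T3 were also subtracted from each other, as were those between T1 and T2. Of these 24 differences 0 passed the test by edgeR or DESeq2, with 1 at an unadjusted p under 0.05 and 0% of the target genes called.

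Between T1 and T2 0 of 36 tests of the Ramp genes passed by edgeR or DESeq2 (6 at an unadjusted p under 0.05 by edgeR), against 0 to 11.6% of the target genes per comparison. The 3 tests in the left cortex of HEM PM mice rest on 1 pool at T1, which was taken to vary like the other groups. The largest in NON mice was Ramp3 in the hindbrain, at -0.41 (95% interval -0.75 to -0.07, adjusted p = 0.135 by edgeR). In all, 18 of 72 tests of time point passed, close to the 24.4% of such tests over all 43 genes.

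**Figure D3:**
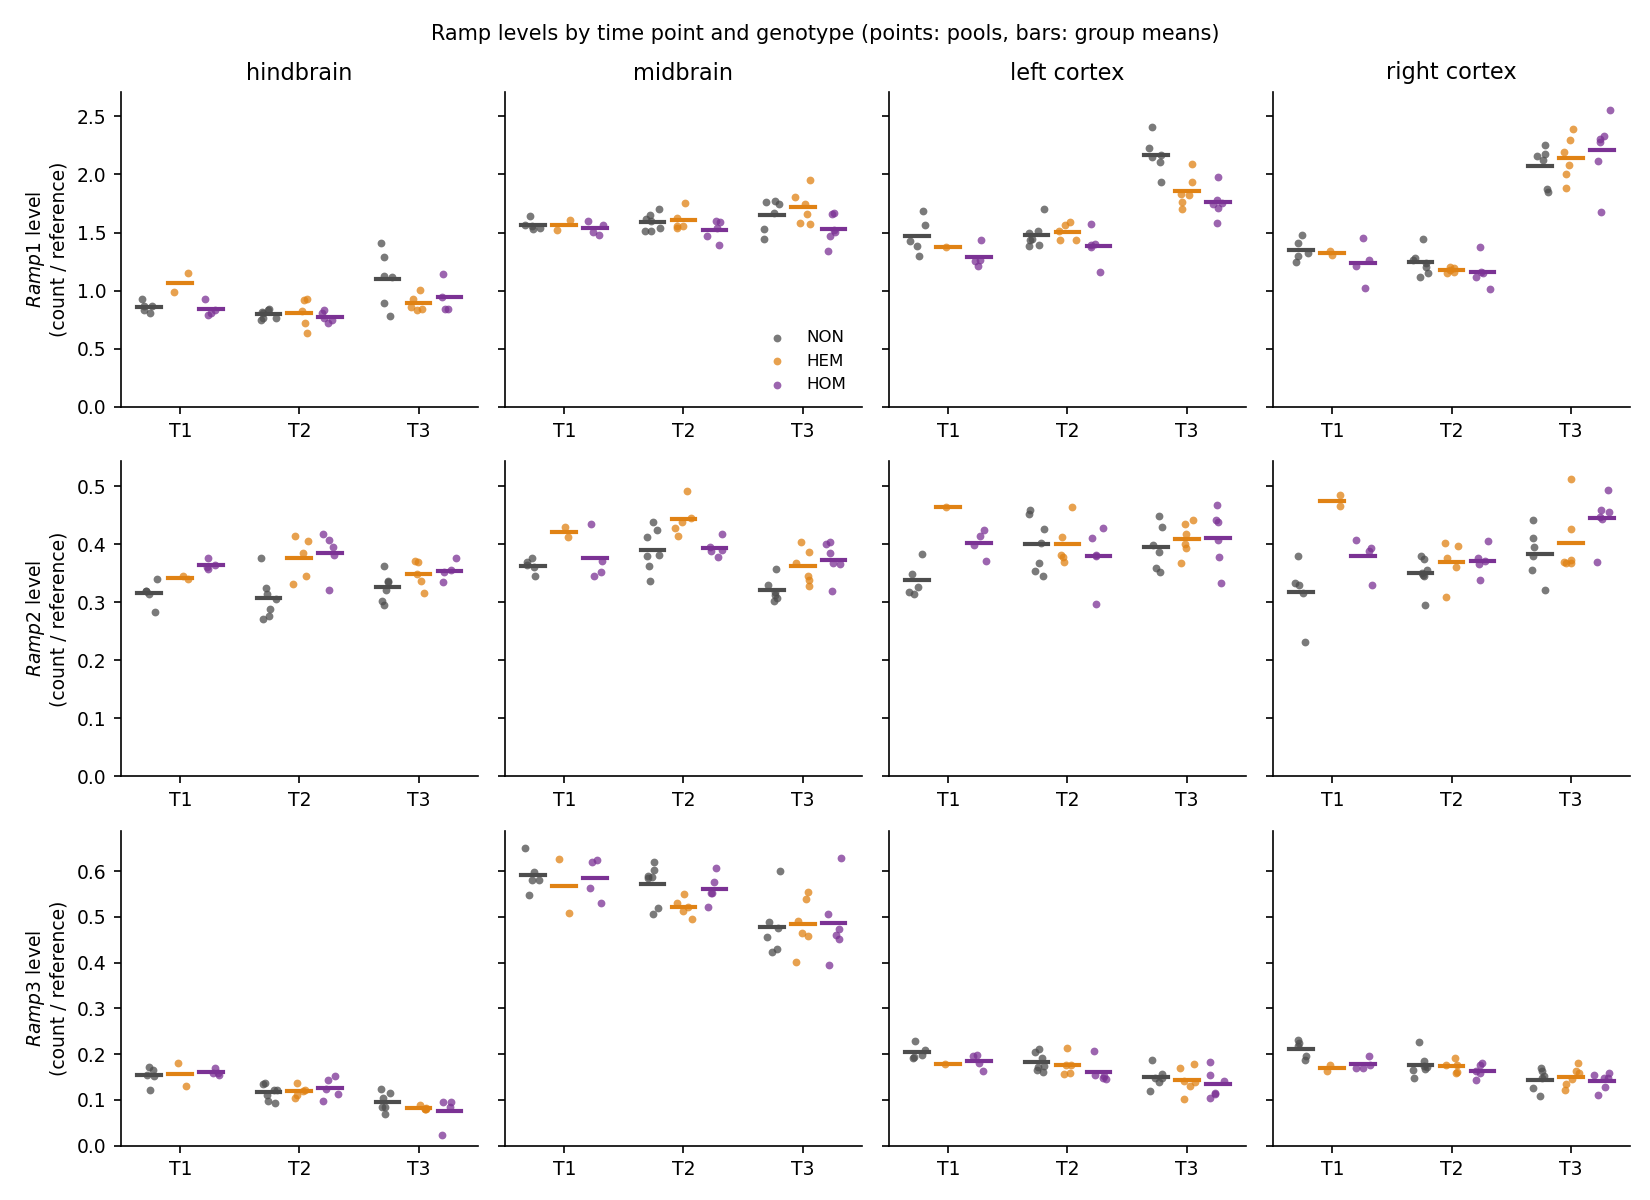
Level of each Ramp gene (count over the geometric mean of the reference genes, vertical axes starting at 0) in every pool with a collection time, by region, time point and genotype, with a bar at each group mean. Ramp1 at T3 lies above T1 without overlap in both cortices of NON and HOM mice, a direction that turned downward under positive control scaling. The lowest Ramp3 point (0.0230) is the hindbrain HOM pool with 3 counts.

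The ratio of Ramp3 to Ramp1 showed the change from T1 to T3 without reference genes. In the hindbrain of NON mice it lay between 0.147 and 0.198 at T1 and between 0.0530 and 0.107 at T3. In the midbrain it ran from 0.350 to 0.395 at T1 and from 0.242 to 0.340 at T3. Left cortex pools lay between 0.122 and 0.161 at T1 and between 0.0499 and 0.0837 at T3, and right cortex pools between 0.127 and 0.185 and between 0.0510 and 0.0824. The time points did not overlap in any of the 4 regions. Among all pairs of the 43 genes the ratios of 9.3%, 3.1%, 32.6% and 36.5% failed to overlap in the same 4 comparisons. The log2 differences were -0.99, -0.38, -1.02 and -1.20 (adjusted p = 0.0286, 0.0343, 0.0286 and 0.0286 by exact permutation within collection times), and the midbrain call was lost without the T1 AM pool 2/7 (-0.35) or 8/9 (-0.41). In HOM mice they were -1.23 (-0.84 without the AM 9 pool, whose Ramp3 count of 3 was not above background), -0.31, -0.995 and -1.08, with no overlap in 3 of the 4 regions (11%, 6.42%, 25.6% and 28.3% of all gene pairs did not overlap), but the smallest adjusted p of that family of 24 exact tests was 0.0667 (11 of the 24 had an unadjusted p under 0.05).

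**Figure D4:**
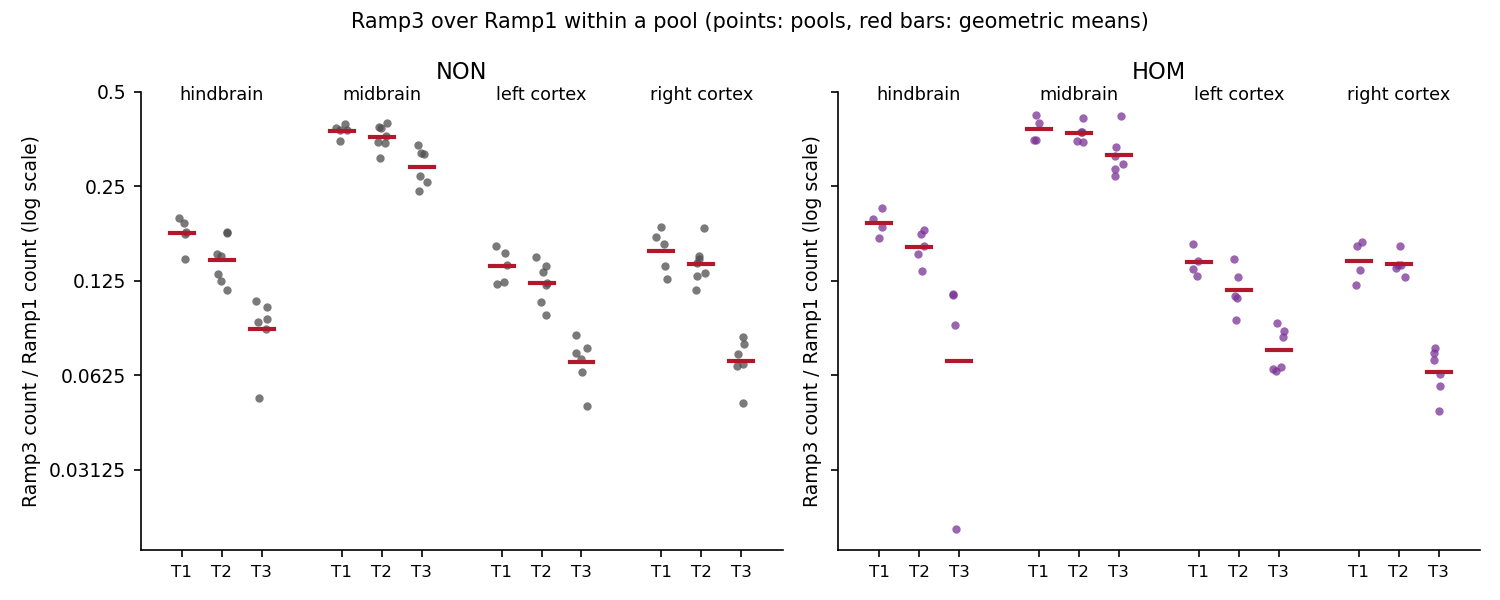
Ratio of the Ramp3 to the Ramp1 count in each pool (vertical axis, log scale), by region and time point in NON (left) and HOM (right) mice, with geometric means in red. In NON mice the T3 pools lie below the T1 pools in every region, and the midbrain pools lie above those of the other regions at each time point. How many gene pairs separate the regions in this way was not counted.

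The remaining ratios completed this picture. Ramp3 to Ramp2 fell between T1 and T3 in the hindbrain (-0.69), left cortex (-0.70) and right cortex (-0.83) of NON mice, with adjusted p-values of 0.0381, 0.0343 and 0.0286 by exact permutation, and not in the midbrain (-0.12, adjusted p = 0.397 by the same exact test). The hindbrain call was lost without the low pools (-0.80, adjusted p = 0.0727 by exact permutation) and without any of 6 of the 18 pools. The ratio was already lower at T2 in the left cortex (-0.42, adjusted p = 0.0286 by exact permutation) and right cortex (-0.37, adjusted p = 0.0357 by exact permutation). Ramp2 to Ramp1 fell in the midbrain (-0.26) and left cortex (-0.32, both adjusted p = 0.0436 by exact permutation) and missed the threshold in the right cortex (-0.37, adjusted p = 0.08 by exact permutation). The T2 calls were lost without any of 2 (left) or 4 (right) of the 18 pools, and those of Ramp2 to Ramp1 without any of 9 (midbrain) or 8 (left cortex). In NON mice 11 of 24 ratio tests of time point passed, and in HOM mice 0 of 24 by the same exact test. The HOM groups allow no unadjusted p below 0.0159 to 0.0333, depending on the comparison, and the NON groups none below 0.00298 to 0.005, so these counts cannot be compared. An unadjusted p under 0.05 was reached by 12 of 24 ratios in NON and 11 of 24 in HOM mice, against 24.7% and 17.1% of such tests over all pairs of the 43 genes.

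Of the 8 other pathway genes, 5 were lower at T3 in the hindbrain of NON mice, 4 in the midbrain and 2 in either cortex, beside 62.8%, 51.2%, 58.1% and 62.8% of all target genes called in either direction, and Adrbk1 was the only one higher, in the left cortex (0.16). Arrb1 was lower in every region (-0.67, -0.24, -0.28 and -0.26) and Arrb2 likewise (-0.47, -0.12, -0.28 and -0.26). The median of all target genes moved in the same direction, at -0.54, -0.20, -0.22 and -0.33 for hindbrain, midbrain, left and right cortex. No other scaling is given for these pathway genes. Calcr was lower in the hindbrain (-0.65, adjusted p = 0.0034 by edgeR) and was -0.20 in the midbrain, where it did not pass.

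Genotype, the main contrast of the study, was tested first as an average over time points and collection times. Ramp2 was higher in the hindbrain of both transgenic genotypes, in the midbrain of HEM mice and in the right cortex of HOM mice. In the hindbrain its level ran from 0.271 through a median of 0.317 to 0.376 in the 18 NON pools and from 0.321 through 0.364 to 0.417 in the 13 HOM pools, with overlap. The log2 difference was 0.22 in HOM (SE 0.048, adjusted p = 0.00283 by edgeR) and 0.19 in HEM mice (SE 0.049, adjusted p = 0.00866), where 4.65% and 18.6% of the target genes differed. Neither call held under the TMM scaling (HOM 0.19 and HEM 0.12), and both held without the 3 low pools (0.21 and 0.17). In the midbrain Ramp2 was higher in HEM mice by 0.20 (adjusted p = 0.0013 by edgeR, 34.9% of the genes called), and the HOM difference of 0.10 (95% interval 0.02 to 0.19, adjusted p = 0.109, 9.3% called) did not pass. In the right cortex it was higher in HOM mice by 0.20 (adjusted p = 0.0403 by edgeR, 6.98% called), a call that was lost on leaving out any of 20 of the 46 pools (0.17 to 0.22), and the HEM difference was also 0.20 but had an adjusted p of 0.0869. In the left cortex the differences were 0.10 in both genotypes and did not pass, and the HEM value was 0.02 without its only T1 PM pool (9/10).

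**Figure D5:**
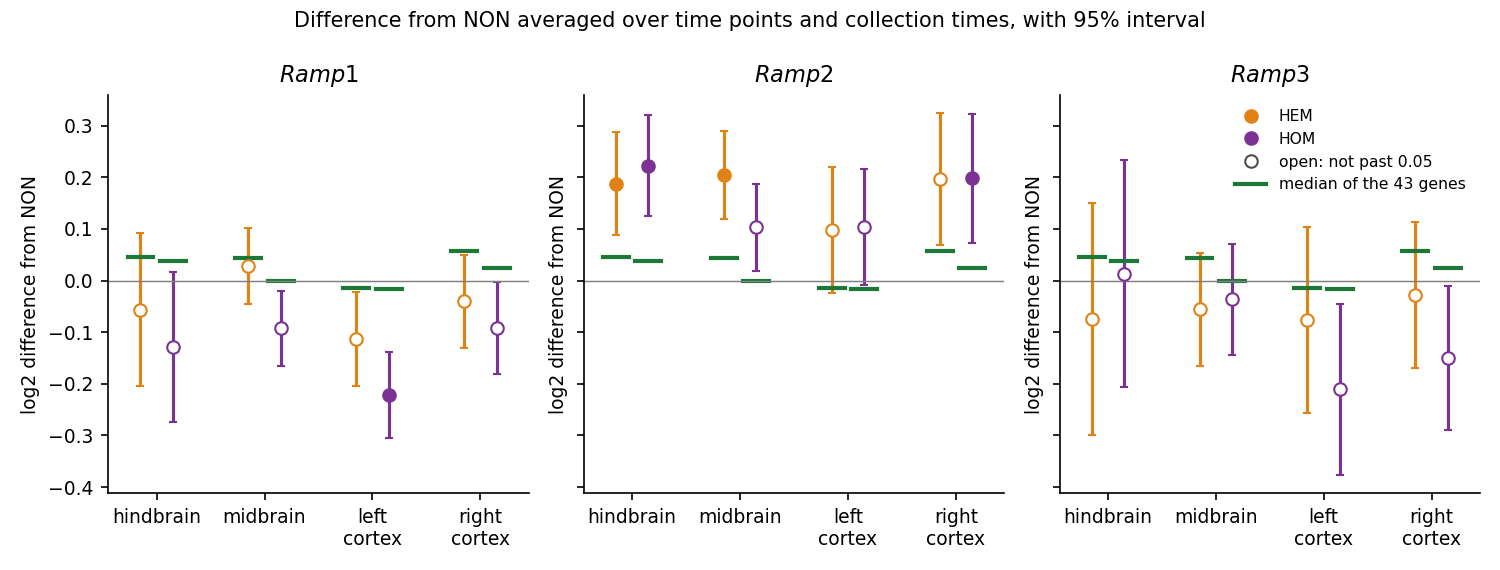
Log2 difference in level from NON (vertical axis), averaged over time points and collection times, for each Ramp gene in HEM (orange) and HOM (purple) mice by region, with 95% intervals, filled symbols where the adjusted p was under 0.05 and the median of the 43 genes in green. The 8 Ramp2 values lie between 0.10 and 0.22 (the left cortex HEM value was 0.02 without 1 pool), and the Ramp3 intervals mostly span 0.

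Ramp1 was lower in HOM mice in the left cortex, by -0.22 (SE 0.041, adjusted p = 0.000291 by edgeR, 9.3% of the genes called), a value of 0.23 when scaled to the positive control probes. Its levels there ran from 1.30 through 1.54 to 2.41 in NON and from 1.16 through 1.43 to 1.98 in HOM pools. In the midbrain it was lower in HOM than in HEM mice (-0.13, adjusted p = 0.0256 by edgeR), a call that 6 of 46 pools carried (-0.15 to -0.084 on leaving out 1 pool). It was also lost under TMM (-0.082), positive control scaling (-0.0033), the median of ratios (-0.092), without reference gene 3 (-0.071) and with cells of at least 2 pools (-0.084). The other Ramp1 differences from NON lay between -0.13 and 0.03 and did not pass. Ramp3 passed in 0 of its 12 genotype contrasts by edgeR or DESeq2, with 2 by edgeR at an unadjusted p under 0.05 (left cortex HOM -0.21 and right cortex HOM -0.15). Over the 3 genes 6 of 36 tests passed, against 8.53% of such tests over all 43 genes. Among the 8 other pathway genes 2 were higher in the hindbrain of HEM mice (Arrb1 by 0.26 and Arrb2 by 0.16), 3 in the midbrain of HEM mice (Adrbk1, Arrb1 and Arrb2) and 1 in the right cortex of HOM mice (Arrb1 by 0.14). In these contrasts 18.6%, 34.9% and 6.98% of all target genes were called, so the pathway genes do not stand out by their number. None was lower than in NON mice, and Adrbk1 was lower in HOM than in HEM mice in the left cortex (-0.10, 6.98% of the target genes called).

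In ratios the genotypes were compared without reference genes. Ramp2 to Ramp1 was higher than in NON mice by 0.34, 0.19, 0.32 and 0.30 for hindbrain, midbrain, left and right cortex of HOM mice (adjusted p = 0.00318, 0.00471, 0.00318 and 0.00318 by permutation within time point and collection time). In HEM mice it was higher by 0.17, 0.21 and 0.24 in midbrain, left and right cortex (adjusted p = 0.00471, 0.046 and 0.0405 by permutation). The hindbrain difference of HEM mice (0.24) did not pass (adjusted p = 0.0517 by permutation). It was 0.14 without the 3 low pools (adjusted p = 0.129 by permutation). The calls in left and right cortex of HEM mice were lost on leaving out any of 14 of 30 and 12 of 31 pools (0.14 to 0.24 and 0.20 to 0.28). Ramp3 to Ramp2 was lower in the hindbrain (-0.26) and midbrain (-0.26) of HEM mice and in the left cortex (-0.32) and right cortex (-0.35) of HOM mice, and the other 4 contrasts did not pass (adjusted p from 0.0792 to 0.159 by permutation). Ramp3 to Ramp1 passed in 0 of 8 permutation tests, with differences from -0.08 to 0.06 (0.14 in the hindbrain of HOM mice without the 3 low pools, not called). Over the 24 ratio tests of genotype 13 had an unadjusted permutation p under 0.05, against 17.8% of such tests over all pairs of the 43 genes.

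The study compared genotypes within each time point and collection time. Here all pools so labelled were used, and their number differs in some groups from that given by the study. In these comparisons 5 of 117 tests of the Ramp genes passed, a share near the 4.71% of such tests over all 43 genes. None of the 117 also reached a 2-fold change, which the study required beside the adjusted p. The study also labelled genes with smaller changes that recurred across comparisons. It reported the Ramp transcripts as detected in each region and none of them as differentially expressed. Ramp2 was higher in the right cortex of T1 PM HEM mice, with levels of 0.485 and 0.466 against 0.330, 0.232 and 0.334 in NON (0.67, adjusted p = 0.00131 by edgeR, 14% of the genes called). It was higher in the hindbrain of T2 PM HEM mice, with 0.414, 0.405 and 0.386 against 0.314, 0.325, 0.306, 0.271 and 0.376 (0.33, adjusted p = 0.015 by edgeR, 4.65% called). In the midbrain of T3 AM HOM mice it was 0.366, 0.319, 0.404, 0.401 and 0.385 against 0.318, 0.308 and 0.302 (0.28, adjusted p = 0.0107 by edgeR, 27.9% called), a difference of 0.14 under TMM, 0.13 under the median of ratios and 0.17 without reference gene 1, none of them called, and its call was also lost when p-values were adjusted over all comparisons of the region (0.0556 by edgeR). The groups did not overlap in these comparisons, nor did those of 44.2%, 14% and 25.6% of the target genes. Ramp1 was lower in the left cortex of T3 PM HEM mice, with 1.76 and 1.70 against 2.17, 2.41 and 2.11 (-0.37, adjusted p = 0.0361 by edgeR, 2.33% called, and 0.70 under positive control scaling). It was higher in the right cortex of T3 AM HOM mice (0.22, adjusted p = 0.043 by edgeR, 34.9% called), but this was -0.02 relative to the panel median and -0.01 under DESeq2's median of ratios. Leaving out 1 pool ended the Ramp2 calls for 3 hindbrain pools and 1 midbrain pool (NON AM 10, 0.26), and the Ramp1 calls for 1 left cortex pool (NON PM 5/6, -0.31) and 6 right cortex pools. Under TMM, under the median of ratios and without reference gene 1, the Ramp2 call in the right cortex alone held (0.53, 0.56 and 0.72) and the other 4 were lost. That right cortex Ramp2 call was lost under the positive control scaling (0.87). With the HEM and NON groups fitted alone its adjusted p was 0.103 by edgeR. The T2 hindbrain Ramp2 call (0.34) and the right cortex Ramp1 call (0.19) were also lost under positive control scaling. Fitting the 2 groups alone ended the T2 hindbrain Ramp2 call and the left and right cortex Ramp1 calls (adjusted p = 0.1225, 0.136 and 0.111 by edgeR). Both Ramp1 calls were lost when p-values were adjusted over all comparisons of the region (0.155 and 0.1655 by edgeR). The T2 hindbrain call was lost with age-matched NON pools (0.33, adjusted p = 0.0823 by edgeR). The HEM and HOM comparisons of a time point share their NON pools.

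Collection time was tested in NON mice alone. The PM and AM pools of NON mice differed in 0 of 12 tests by edgeR or DESeq2, with 0 at an unadjusted p under 0.05 by edgeR and values from -0.10 to 0.12, while 0 to 9.3% of the target genes differed by region.

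Left and right cortex were dissected from the same mice, so each pool gave a repeated measurement. After group means were removed, the deviations of Ramp2 in the left and right cortex of 40 pools in 14 groups were correlated (Pearson r = 0.51, permutation p = 0.00148, adjusted 0.00444; Spearman rho = 0.56, permutation p = 0.00095, adjusted 0.00285). Without the 2 pools farthest from the median r was 0.43 (permutation p = 0.0125). For Ramp1 r was 0.17 and rho 0.18, and for Ramp3 r was 0.16 and rho 0.11, with adjusted permutation p-values of 0.424 for both r values. Relative to the total of the 43 genes in place of the reference genes, r of Ramp1 was 0.43 (adjusted permutation p = 0.021), and whether the genes differ in r was not tested. Both sides of a pool came from the same animals, and whether they also shared a hybridisation run was not tested.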

How the data were processed

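RNA of L44 mouse brain was counted with a custom nCounter panel of 43 target genes, 3 reference genes, 6 positive and 8 negative probes. The authors deposited raw counts, 1 value per probe and pool (192 pools, 341 tissue samples), with no normalization, and the authors' own tests were not used. Each target count was divided by the geometric mean of the reference genes of its pool. Background was the mean plus 2 SD of the negative probes. Counts of all 43 genes were fitted with edgeR 4.0.16 (R 4.3.3) quasi-likelihood models, with a mean for each region, time point, genotype and collection time and the reference geometric mean as library size (prior count 0.125). A gene was called at an adjusted p under 0.05 (Benjamini-Hochberg over 43 genes). Effects are averages of equal weight over the cells that hold both groups. Log2 ratios within a pool were tested by exact permutation, or with 100000 permutations, within time point and collection time (SciPy 1.17.1), adjusted within families of 18 or 24 tests.

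Per the series' design text a pool label names its mice, so pools with the same label, time point and genotype in different regions were taken as the same mice (14 to 17 NON pairs). Some T3 pools of different regions share a mouse under different labels, and these were not paired. Without the block, the edgeR models of several regions took tissue of the same mice as independent. The labelled ages of the T3 HOM pool 1/5 differ between regions, and that pool entered no paired test. The left and right cortex correlations above bear on the pairing of the cortices alone. Relative to the reference genes, only that of Ramp2 passed. For pairs with the hindbrain or midbrain no such correlation is given. DESeq2 1.42.0, TMM, positive probes, leaving out each reference gene or pool, and a replicate block were alternatives, and the fit was checked on simulated counts. Copies were looked for: 0 of 198 pairs within groups held identical counts, and each pair differed by more than counting noise. Replicates within a region are pools of different mice, so p-values measure the spread between pools. Ramp genes were named throughout. Pathway, region marker and likeness genes followed fixed rules, and the members and lists were chosen with earlier results of these data known. In 5 right cortex T2 pools the labels disagree in 1 field on genotype, and the title and genotype field were followed. A reference gene is not reported by name here.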

Additional observations from a re-analysis of the deposited data

Results flagged for a closer look

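In 66 tests for a pool far from the rest, 5 values stood out at a level where chance marks about 0.05 of tests. Each test took 1 gene or ratio in a group of 4 or more pools, so several tests share the same pools. Ramp3 in the midbrain was 0.507 in the T2 NON PM pool 4/13, with the others at 0.587 to 0.620. The ratio of Ramp2 to Ramp1 in the midbrain was 0.285 in the T2 NON PM pool 11/14, with the others at 0.239 to 0.250. Ramp1 in the left cortex was 1.98 in the T3 HOM AM pool 2/7 (others 1.71 to 1.78). Ramp2 in the right cortex was 0.513 in the T3 HEM AM pool 6 (others 0.367 to 0.374). Ramp3 in the right cortex was 0.110 in the T3 HOM AM pool 3/4 (others 0.147 to 0.159).

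The 12 T1 HEM pools without a collection time entered no test, but they were part of the group means used to find genes of similar level. In their 3 midbrain pools Ramp3 was 0.721, 0.836 and 0.893, above all 46 midbrain pools with a collection time (0.395 to 0.650). Ramp1 (1.63, 1.35 and 1.54) and Ramp2 (0.326, 0.326 and 0.392) lay within the range of those pools. The 7 hypothalamic markers did not move together in these pools. In pools 1/2 and 5/6 Hdc, Pomc and Agrp lay below every midbrain pool with a collection time, and in pool 3/4, where Ramp3 was also high, they lay within their range. Hdc was 0.0165, 0.0564 and 0.0101 (0.0339 to 0.0612 in the pools with a collection time), Pomc 0.0107, 0.0621 and 0.00951 (0.0239 to 0.139) and Agrp 0.00794, 0.0154 and 0.00571 (0.00926 to 0.0310). Hcrt was 0.143, 0.246 and 0.0843 (0.0761 to 0.172) and Mch 3.39, 6.46 and 2.38 (2.50 to 5.41). Npy was 2.55, 1.81 and 2.47 (1.97 to 7.29), and Cart was 0.931, 0.848 and 0.582 (0.520 to 1.25), within range in all 3. Their part in the Ramp3 level was not tested.

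The change from T1 to T3 in NON mice differed between regions by the test of the difference in 5 instances. For Ramp1 the difference was -0.28 for midbrain against hindbrain, 0.47 for left cortex against midbrain and 0.55 for right cortex against midbrain. For Ramp2 it was 0.42 for left cortex and 0.43 for right cortex against midbrain. Without reference gene 1 these became -0.16, 0.23, 0.36, 0.18 and 0.24, and only the third was still called.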

How the results depend on the processing

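Scaling was the choice that moved the results most. Under positive control probes the signs turned for Ramp1 at T3 minus T1 in NON mice (hindbrain -1.56, left cortex -1.04, right cortex -1.15), HOM mice (left cortex -0.74, right cortex -0.51) and HEM PM mice (right cortex -1.34), for Ramp2 in NON mice (left cortex -1.35, right cortex -1.51), for Ramp1 between right and left cortex (0.15), for Ramp1 in the left cortex of HOM mice (0.23) and of T3 PM HEM mice (0.70), and for the 5 differences between regional changes (1.61, -1.09, -1.13, -1.20 and -1.30), whose count rose from 5 to 11. The last of these alternatives were added after seeing the data. Ramp2 against the hindbrain turned under TMM (midbrain -0.092, left cortex -0.032, right cortex -0.12), under DESeq2's median of ratios (-0.14 and -0.058 in midbrain and right cortex) and without reference gene 3 (right cortex -0.055). Ramp2 in the midbrain at T3 was 0.020 under TMM and 0.0089 under the median of ratios, and Ramp1 in the right cortex of T3 AM HOM mice was -0.010 under the latter. The cause was not tested.

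Calls of Ramp3 at T3 in NON mice were lost under TMM (-0.20, -0.10, -0.18 and -0.19 in the hindbrain, midbrain and both cortices), the median of ratios (-0.19, -0.11, -0.19 and -0.22) and, in the midbrain, without reference gene 1 (-0.15). All 4 HOM calls and the HEM PM hindbrain call of Ramp3 were likewise lost under TMM and the median of ratios, those of the HOM hindbrain, HOM midbrain and HEM PM hindbrain also under positive probes (-1.41, -0.039 and -0.077) and those of the HOM midbrain and right cortex without reference gene 1 (-0.24 and -0.29), and the 3 Ramp2 calls at T3 in NON mice and 4 of the 5 differences between regional changes were lost without reference gene 1. Ramp1 in the midbrain became called under TMM (0.28), the median of ratios (0.27) and without reference gene 1 (0.22). Ramp1 between the cortices was lost under TMM (-0.14), the median of ratios (-0.12), without reference gene 2 (-0.15) and with all genotypes (-0.075), and in the hindbrain at T3 without the low pools (0.14), where that of HEM PM mice was gained (-0.34). For Ramp2 and genotype, hindbrain calls were lost under TMM (HEM 0.12, HOM 0.19), positive probes (0.76 and 0.58) and the median of ratios (HEM 0.15). The right cortex HOM call was lost without reference gene 2 (0.16), with cells of at least 2 pools (0.19) and in an additive model (0.19), and calls were gained in the midbrain HOM (0.11 under TMM, 0.23 under positive probes, 0.13 without reference gene 3), left cortex HOM (0.56 under positive probes) and right cortex HEM contrasts (0.20 under DESeq2 with reference genes, 0.17 under the median of ratios). The count of 5 calls within time points became 3 under TMM, without reference gene 1 or adjusted over a region, and 2 under the median of ratios or with the groups fitted alone, but of the 5 named calls the right cortex Ramp2 call alone held under TMM, the median of ratios and without reference gene 1. Ramp1 in the midbrain of HOM against HEM mice lost its call in 5 alternatives (-0.092 to -0.0033).

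With the mice as a replicate block, which the pairing of regions by pool label allows, 14 in place of 12 region tests passed, since Ramp2 between left cortex and midbrain (0.09, adjusted p = 0.0417 by edgeR) and Ramp1 between right cortex and midbrain (-0.08, adjusted p = 0.0377 by edgeR) were gained. The other region calls were unchanged by it.

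Leaving out each pool in turn, the calls numbered 11 to 12 for regions, 17 to 19 for time points, 5 to 7 for genotype averages, 4 to 6 within time points, 0 for collection time, 4 to 7 for differences between changes and 32 to 37 of 90 for ratios. The difference of Ramp1 between the cortices ran from -0.18 to -0.14, and 12 of 72 pools carried its call. Ramp2 in the right cortex ran from 0.17 to 0.22 in HOM mice, where 20 of 46 pools carried the call, and from 0.17 to 0.22 in HEM mice, where 1 exclusion made it one. Ramp1 in the hindbrain at T3 ran from 0.19, without NON AM 7, to 0.52.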
